A study of Mus musculus with 24 samples.

Results

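miR-184 was followed through late embryonic and early postnatal development of the mouse lens by both of its mature strands, mmu-miR-184-3p and mmu-miR-184-5p. They were the 2 of 1908 mature miRNAs in each small-RNA table whose name, up to the miRBase identifier, was miR-184. The lenses came from C57BL/6 mice with no allele or treatment added, dissected at 6 ages: 15 and 18 days of gestation (E15 and E18), the day of birth (P0), and 3, 6 or 9 days after it (P3, P6 and P9). Each stage had 2 pools, A and B, of 8 to 9 pups each, and 12 small-RNA and 12 mRNA libraries were read. A pool is a biological replicate of mixed lenses from several pups, and whole lenses hold epithelium and fiber cells together.

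A miRNA is cut from a hairpin precursor by Drosha and Dicer, 1 strand of the duplex is usually kept in an Argonaute protein, and bases 2 to 8 of that strand, the seed, pair with target mRNAs. miR-184 is known as an abundant miRNA of the lens and of the corneal epithelium. In human families a seed substitution in miR-184 has been linked to keratoconus with early cataract. In human keratinocytes miR-184 was described as opposing miR-205, which represses the lipid phosphatase SHIP2, the product of Inppl1.

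The 2 mature strands are shown first because the seed of the 3p strand is what a target site has to match. The RefSeq table (GRCm38.p6) held both, and their seeds are in capitals.
miR-184-3p: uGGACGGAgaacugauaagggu
miR-184-5p: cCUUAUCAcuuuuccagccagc
None of the other mature mouse miRNAs in that table, which holds 1679 names, had the seed of the 3p strand, and none had the seed of the 5p strand. Both strands are 22 bases long and come from 1 hairpin of 69 bases on the minus strand of chromosome 9 (GRCm38, chr9:89802260-89802328). The 3p strand lies at chr9:89802263-89802284 and the 5p strand at chr9:89802302-89802323. The hairpin is given with the 5p strand, then the 3p strand, in capitals.
Mir184 hairpin: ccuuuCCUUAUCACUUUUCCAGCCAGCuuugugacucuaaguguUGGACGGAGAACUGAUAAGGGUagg
RNAfold gave it a minimum free energy of -29.0 kcal/mol, with 17 base pairs between the strands and 17 bases between them in the loop. No other GENCODE M21 gene overlapped the hairpin, so it is intergenic in that annotation. The values of neither strand were identical to those of another miRNA in all 12 libraries, which would have marked a shared source of reads.

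The deposited small-RNA values are a scaled signal of unnamed unit, here called signal, which summed to between 764009 and 816619 per library. Their depth is unknown, and a value is relative to the other small RNAs of its library. In bulk lens RNA, more or fewer cells of a type and more or less RNA per cell cannot be told apart. Lens fiber markers were all present (11 of 11 tested, summed RPKM 112527 at P9 and 65777 at E15), as were lens epithelium markers (6 of 6 tested, 1568 at P9 and 884 at E15). Most of the epithelium sum was Dkk3, which averaged 1337 at P9 and 556 at E15, and the other epithelium markers did not share its course. Pax6 averaged 93.6 at P9 and 176 at E15, Foxe3 35.1 and 69.2, and Cdh1 16.5 and 18.8. Gja1 averaged 53.9 at both stages, and Npnt 32.1 at P9 and 11.3 at E15. The P3 small-RNA pools stood apart: the median absolute log2 difference between the 2 pools over 777 miRNAs was 0.506 at P3, against 0.194 to 0.323 at the other 5 stages. The tests over all postnatal stages are therefore given with and without P3.

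miR-184-3p had the highest mean signal of all miRNAs, 87087 over the 12 libraries, or 10.8% of the summed signal. It was high at P0, P6 and P9 and low at E15, E18 and P3. Its signal was 51717 and 60829 in pools A and B at E15, and 61481 and 60549 at E18. At birth, P0, it was 104279 and 100699. At P3 it was 46256 and 63941. It was 119605 and 127339 at P6, and 137950 and 110403 at P9. All 6 libraries of P0, P6 and P9 lay above all 6 libraries of E15, E18 and P3, with no overlap. These sets of stages were read off the same values, and how many other miRNAs split in this way was not counted. As a share of the summed signal, the 3p strand ran between 6.05% in pool A at P3 and 16.9% in pool A at P9.

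**Figure D1:**
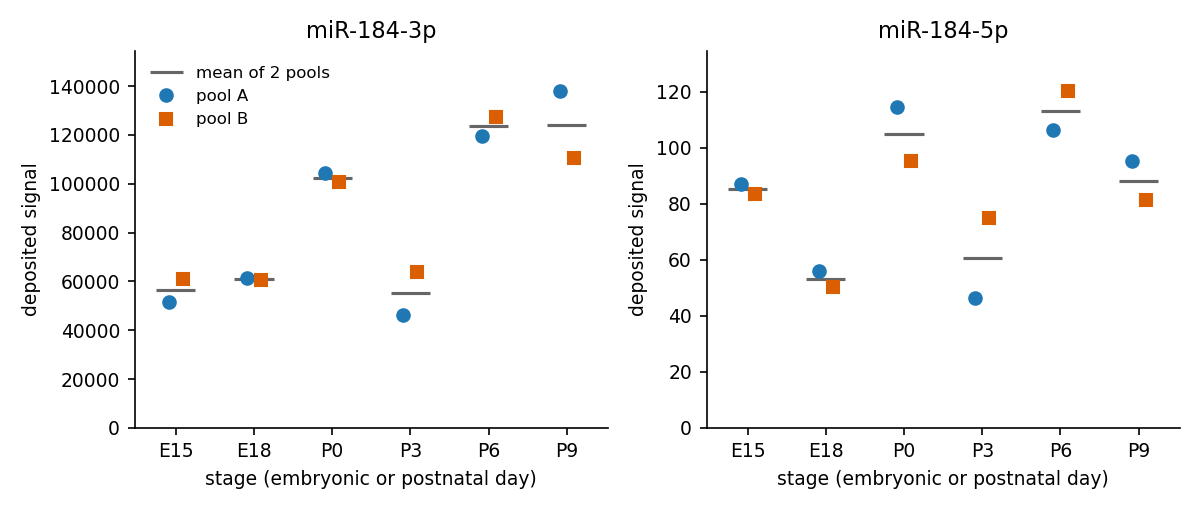
Deposited signal of miR-184-3p (left) and miR-184-5p (right) against stage, with a point for each pool and a line at the mean of the 2 pools. The 3p strand averaged 124177 at P9 and 56273 at E15 with a low value of 55098 at P3, while the 5p strand averaged 88.3 at P9 and 85.4 at E15.

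The embryonic means of miR-184-3p were 56273 ± 6443 at E15 and 61015 ± 659 at E18 (SD, n = 2 pools at each stage). The mean was 102489 ± 2532 at birth and 55098 ± 12505 on day 3. On days 6 and 9 it was 123472 ± 5468 and 124177 ± 19479. On the log2(signal + 1) scale the joint limma test of stage gave an adjusted p of 0.000106 for miR-184-3p. That test called 502 of 777 miRNAs, or 64.6%, so a call over the stages was common among lens miRNAs. Between P9 and E15 the 3p strand rose by 1.14 ± 0.19 (log2, SE), a fold of 2.20, with a limma adjusted p of 0.00018. In that comparison 12% of all miRNAs rose and 49.3% fell, and the median change of all miRNAs was -0.80. The balance depended on the scaling: after median-ratio rescaling 24.8% rose and 26.6% fell, and after quantile normalization 25.2% rose and 24.5% fell. The 4 postnatal stages averaged 0.71 ± 0.12 above the 2 embryonic stages (adjusted p = 0.000146), where 12.6% of all miRNAs rose, or 25.2% after median-ratio rescaling and 26.5% after quantile normalization. Without both P3 libraries that difference was 0.99 (adjusted p = 1.80e-06) and the joint test of miR-184-3p gave an adjusted p of 2.85e-05. P3 was the lowest stage of miR-184-3p, so leaving it out widens the difference by itself and is no support for it.

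The change was not even over time. E18 differed from E15 by 0.12 ± 0.19, which was not called (adjusted p = 0.726, 12.1% of miRNAs called). At birth miR-184-3p rose, with P0 above E18 by 0.75 ± 0.19 (adjusted p = 0.0185, 7.59% of miRNAs rose). At P3 it fell, with P3 against P0 at -0.91 ± 0.19 (adjusted p = 0.00624, 17% of miRNAs fell, or 6.18% after either rescaling). At P6 it rose again, by 1.18 ± 0.19 over P3 (adjusted p = 0.000706, 12.2% of miRNAs rose). P9 and P6 had the same mean to 2 decimals on the log2 scale (adjusted p = 1). Between P9 and P6 limma called 0 of 777 miRNAs (0%), and 75 had an unadjusted p under 0.05.

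Ordered by level on the log2 scale, miR-184-3p ran P3, E15, E18, P0, P9, P6 from low to high. Of the 15 pairs of stages, 9 were called. Among neighbours in that order, P0 and E18 differed beyond their spread, while P3 and E15, E15 and E18, P0 and P9, and P9 and P6 did not. No pair within P3, E15 and E18 was called, nor any pair within P0, P9 and P6, while each of the 9 pairs between these sets was. The sets were read off the order itself, so this split is a description.

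Some of these calls depended on single libraries or on the scaling. P0 against E18 kept its size without pool A or B of E18 or pool A or B of P0, at 0.72 to 0.77, but the adjusted p was then 0.0872, 0.0914, 0.135 and 0.093. P3 against P0 was -0.89 without pool A of P0, with an adjusted p of 0.0729. After median-ratio rescaling, which brought the median change of all miRNAs between P9 and E15 to -0.10, the rise of miR-184-3p was 2.05 (adjusted p = 1.25e-06). After quantile normalization it was 0.51 (adjusted p = 0.0579), the lone alternative that lost this call, and the adjusted p of the other alternatives lay between those 2 values. Quantile normalization gives the top-ranked miRNA an equal value in every library, and miR-184-3p ranked first in 6 of them.

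Markers of other cell types moved along the same stages, and their part in the miR-184 values was not tested. Erythroid mRNA markers (3 of 3 tested) summed to 4255 RPKM at E15, 110 at P0, 657 at P3 and 74.0 at P6. The 6 retina mRNA markers summed to 135 RPKM at E18, 27.3 at P0, 59.6 at P3 and 49.0 at P6, and the 5 retina miRNAs to 40362 signal at E18, 12932 at P0, 72004 at P3 and 74680 at P6. Both retina sums were lower at P0 than at E18 and higher at P3 than at P0, the reverse of miR-184-3p at these steps. Between P3 and P6, where miR-184-3p rose, the retina mRNA sum was lower and the retina miRNA sum slightly higher. At P9, where miR-184-3p was high, both retina sums had their highest stage means, 177 RPKM and 134295 signal. Macrophage mRNA markers (3 of 3) summed to 12.7 RPKM at P0, 23.1 at P3 and 4.01 at P6. The 3 muscle miRNAs, mostly miR-133a-3p, summed to 4684 signal at E15, 3892 at E18 and 5010 at P3. Their sums were 7476 at P0, 7878 at P6 and 6794 at P9, so they were low and high at the same stages as miR-184-3p. At E18, P0, P3 and P6, endothelium mRNA markers summed to 48.5, 21.0, 16.0 and 11.5 RPKM. Pigment markers summed to 118, 99.1, 70.7 and 17.8 and mesenchyme mRNA markers to 5.23, 1.87, 7.11 and 1.66 at these stages. In the small-RNA libraries the erythroid pair miR-451a and miR-144-3p summed to 196 in pool A and 569 in pool B at P3, where miR-184-3p had 46256 in pool A and 63941 in pool B. Markers of corneal and surface epithelium (6 mRNAs) summed to 0.513 RPKM at P9 and 17.9 at E15, the reverse of the course of miR-184-3p. Of these, Krt5 and Aldh3a1 were at 0 in 5 libraries each and Krt14 in 6, and none was at 0 throughout. Where miR-184-3p fell and rose again, 0.521% of 14405 genes were called between P3 and P0 and 1.08% between P6 and P3, against 21% and 25.4% of miRNAs. At an unadjusted p under 0.05 there were 10.8% and 20.2% of genes in these comparisons.

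miR-184-5p, the other strand of the duplex, was measured far below the 3p strand and ranked between 174 and 262 among the miRNAs of a library. Its signal was 87.3 and 83.4 in pools A and B at E15, and 56.0 and 50.2 at E18. At P0 it was 114.5 and 95.4, and at P3 it was 46.4 and 75.0. It was 106 and 120.3 at P6, and 95.2 and 81.4 at P9. Like the 3p strand it was low at E18 and P3, but its E15 values overlapped those of P9. The joint test of stage called it (limma adjusted p = 0.00578). P9 against E15 was 0.05 ± 0.24 and was not called (adjusted p = 0.879).

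The 5p strand rose at birth, with P0 above E18 by 0.97 ± 0.24 (adjusted p = 0.0177). It fell at P3, at -0.81 ± 0.24 against P0 (adjusted p = 0.0279), and rose at P6, by 0.93 ± 0.24 over P3 (adjusted p = 0.0112). Each of these 3 calls was lost without some single library: the first without either pool of E18 or of P0 (0.84 to 1.10, adjusted p up to 0.149), the second without either pool of P0 or pool A of P3 (up to 0.181), and the third without pool A of P3 or pool B of P6 (up to 0.103). The change of the 5p strand between E18 and E15 was -0.68 (log2), which was not called (adjusted p = 0.0762). The postnatal stages averaged 0.39 ± 0.15 above the embryonic ones (adjusted p = 0.0324), a call lost without pool A or B of E15, pool A or B of E18, pool A of P0, pool B of P6 or pool A of P9, where the adjusted p ran up to 0.109. Without both P3 libraries it was 0.58 (adjusted p = 0.00056), and the joint test of the 5p strand gave an adjusted p of 0.00102. P3 was the lowest postnatal stage of the 5p strand, so leaving it out widens the difference by itself and is no support for it. From low to high the 5p strand ran E18, P3, E15, P9, P0, P6. No neighbours in that order differed beyond their spread, and 5 of 15 pairs were called. After median-ratio rescaling P9 was above E15 by 0.95 (adjusted p = 0.00284, the lowest of its alternatives, which reached 0.989), so whether the 5p strand was called between P9 and E15 depended on the scale.

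The ratio of the strands does not depend on the scaling of a library. The signal of miR-184-3p over that of miR-184-5p was 593 and 729 in pools A and B at E15, and 1098 and 1207 at E18. It was 911 and 1056 at P0, and 997 and 852 at P3. At P6 it was 1124 and 1059, and at P9 it was 1448 and 1356. Both P9 pools lay above every other library and both E15 pools below every other library, an order that was not counted in other hairpins. Averaged over libraries the log2 ratio was 9.96, the eighth largest in size of 246 hairpins with both strands tested, where the median size was 2.94. The 3p strand was the larger one in 117 of the 246 hairpins.

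**Figure D2:**
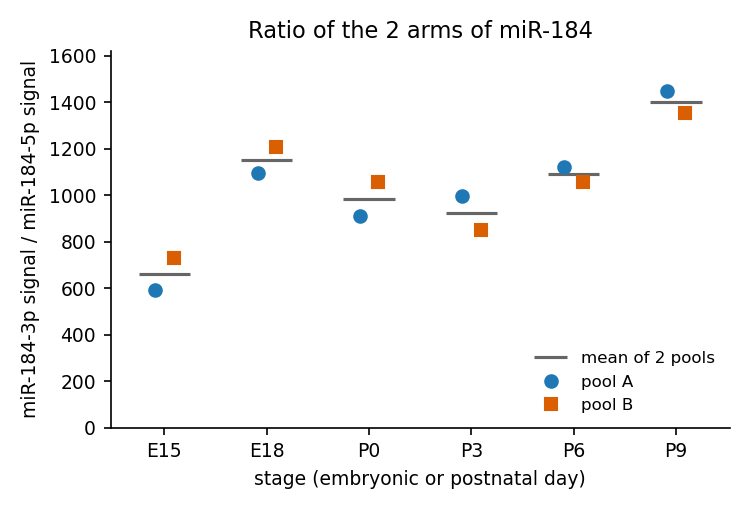
Signal of miR-184-3p divided by that of miR-184-5p against stage, with a point for each pool and a line at the mean. The P9 pools, at 1448 and 1356, are the highest and the E15 pools, at 593 and 729, the lowest.

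Between P9 and E15 the log2 ratio of 3p over 5p rose by 1.09 ± 0.25 (limma over 246 hairpins, adjusted p = 0.0065), a fold of 2.13. In that comparison 46.3% of hairpins were called and 18.7% rose. The median change was -0.24, and 34 hairpins rose more than miR-184. Without pool A of E15 the rise was 0.94 (adjusted p = 0.0512, the highest of its alternatives, which ran down to 0.000484). The joint test over the stages missed the threshold (adjusted p = 0.0514, 43.1% of hairpins called), and so did the postnatal against the embryonic stages, at 0.32 ± 0.15 (adjusted p = 0.116, 39.8% of hairpins called). Without the P3 libraries the postnatal stages were 0.40 above the embryonic ones (adjusted p = 0.0324) and the joint test gave an adjusted p of 0.0199. P3 had the lowest postnatal mean of this ratio, so leaving it out widens the difference by itself and is no support for it.

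miR-184-3p was the first miRNA in some libraries and not in others. It ranked first in 6 of 12 libraries: pool A of E18, both pools of P0, both pools of P6 and pool A of P9. miR-204-5p, a miRNA expressed from an intron of Trpm3 and abundant in lens and retinal pigment epithelium, was first in pool B of E15 and pool B of E18. miR-181a-5p was first in both pools of P3. miR-92a-3p, a strand of the miR-17 to miR-92 cluster of dividing cells, was first in pool A of E15, and miR-182-5p, a strand of the sensory cluster known from photoreceptors, in pool B of P9. In this last library miR-184-3p had 110403 and miR-182-5p 154834. The 5 retina marker miRNAs, of which miR-182-5p is one, summed to 134295 at P9 and 15544 at E15. The 6 retina mRNA markers summed to 109 and 245 RPKM in pools A and B at P9, against 161 and 42.4 at E15, and their part in the share of miR-184-3p was not tested.

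**Figure D3:**
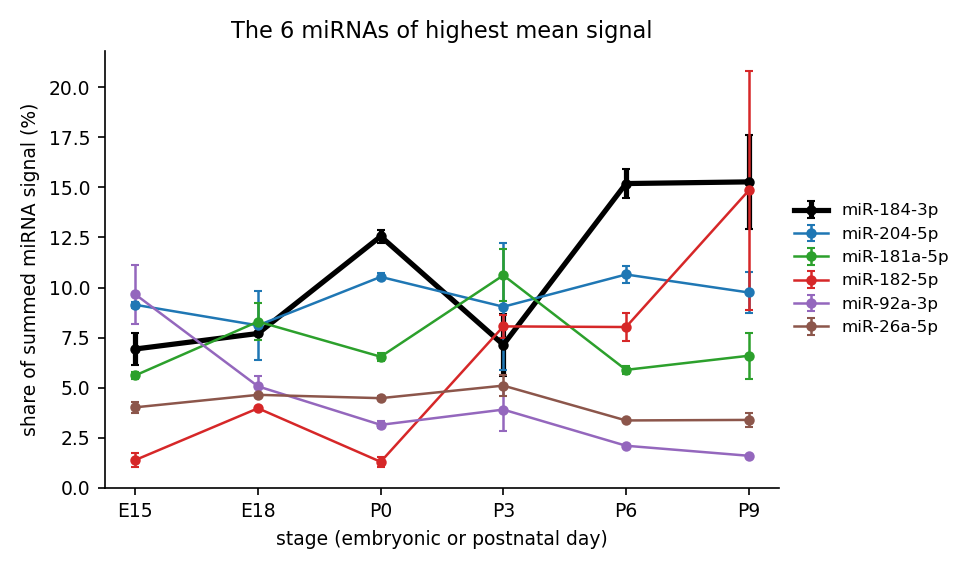
Share of the summed miRNA signal, in percent, for the 6 miRNAs of highest mean signal against stage, as means of 2 pools with SD bars. miR-184-3p took 15.3% at P9 and 6.93% at E15, and miR-204-5p 9.75% at P9 and 9.14% at E15.

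Against miR-204-5p, which averaged 79281 ± 8315 at P9 and 74196 ± 1520 at E15 (SD, n = 2) and was not called on the deposited scale but rose by 1.01 after median-ratio rescaling (adjusted p = 0.00345), the miR-184-3p signal was 1.620 and 1.504 times as high in pools A and B at P9 and 0.687 and 0.832 times at E15. At E18 the ratio was 1.122 and 0.823, at P0 1.199 and 1.185, at P3 0.536 and 1.21, and at P6 1.34 and 1.52. The 8 postnatal libraries averaged 0.50 above the 4 embryonic ones on the log2 scale, which an exact two-sided permutation test over 495 assignments did not call (p = 0.109). The permutation moved single libraries and did not keep the 2 pools of a stage together, so all its p values count them as independent. The ratio in pool A of P3 was the lowest of all 12. Without that library the difference was 0.67 (exact permutation p = 0.00606), and without both P3 libraries it was 0.70 (exact permutation p = 0.00952). Dropping the lowest postnatal values widens the difference by itself, so these 2 p values are no support for it. With any other single library left out the difference was 0.40 to 0.64, with an exact permutation p of 0.0848 to 0.267.

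Relative to the other abundant miRNAs the course of miR-184-3p differed by partner. Its mean log2 ratio to miR-92a-3p was 3.25 at P9 and -0.48 at E15. Its mean log2 ratio to miR-26a-5p was 2.17 at P9 and 0.78 at E15, and that to miR-181a-5p was 1.21 at P9 and 0.30 at E15. To miR-182-5p it was 0.09 at P9 and 2.34 at E15, so miR-182-5p gained on miR-184-3p while the other 4 lost. miR-205-5p, the partner of miR-184 in the keratinocyte work, had 19.7 and 18.9 in pools A and B at P9, against 991 and 1197 at E15. It fell by 5.75 on the log2 scale (limma adjusted p = 2.13e-09), and it is itself one of the markers of surface epithelium.

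The miRNAs whose signal most resembled that of miR-184-3p over the 12 libraries were ranked by Pearson's r among the miRNAs with a mean signal of at least 100. The 5 highest were miR-31-3p (r = 0.992), miR-582-5p (0.991), miR-384-3p (0.988), miR-325-3p (0.977) and miR-24-3p (0.959). miR-31-3p averaged 110 and 119 at E15 and E18, then 578 at birth, 132 on day 3, and 909 and 835 on days 6 and 9. miR-582-5p averaged 225 and 228 at E15 and E18, then 805 at birth, 254 on day 3, and 1100 and 1007 on days 6 and 9. Both were low at E15, E18 and P3 and high at P0, P6 and P9 like miR-184-3p, with a wider range. All of these libraries share their scaling, and 12 points in 6 pairs carry no more than a description.

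**Figure D4:**
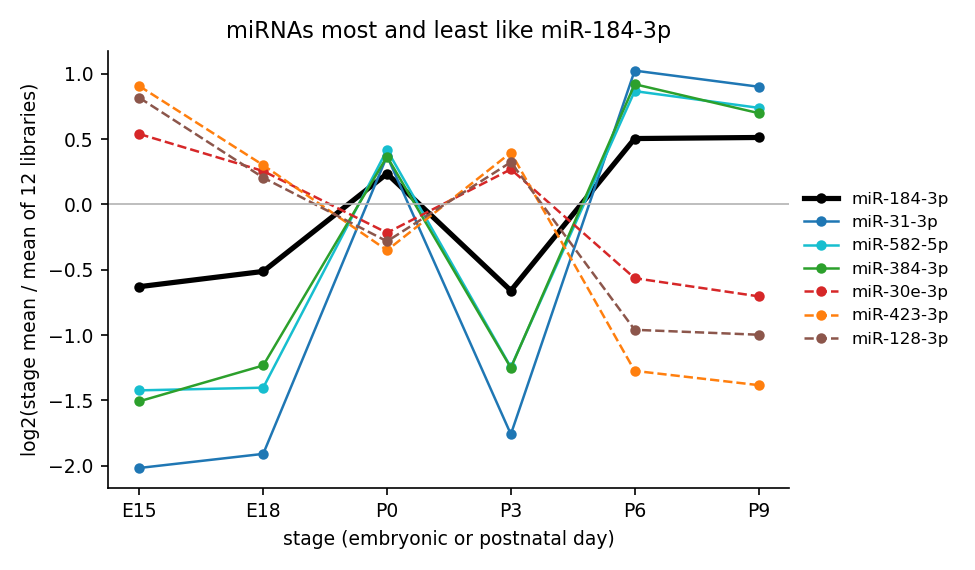
Log2 of the stage mean over the mean of 12 libraries for miR-184-3p, the 3 miRNAs most like it and the 3 least like it. miR-184-3p, miR-31-3p, miR-582-5p and miR-384-3p dip at P3 where miR-30e-3p, miR-423-3p and miR-128-3p are higher than at P0 and P6.

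The 3 lowest were miR-30e-3p (r = -0.937), miR-423-3p (-0.937) and miR-128-3p (-0.934), of which miR-423-3p averaged 375 at P9 and 1830 at E15. miR-184-5p followed miR-184-3p less closely, with r = 0.762. The miRNAs most like miR-184-5p were miR-218-5p (r = 0.890), miR-345-5p (0.851) and miR-340-5p (0.843). miR-204-5p had r = 0.462 with miR-184-3p and miR-205-5p had -0.712.

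The genes around the hairpin were looked up in the mRNA libraries, since Mir184 lies near the imprinted Rasgrf1 domain of the mouse. The hairpin itself, a transcript too short for an mRNA protocol, was listed at 0 to 2.13 RPKM and at 0 in 5 of 12 libraries, so no fold is given. The nearest gene at lower coordinates was Ankrd34c (RefSeq, GRCm38.p6, chr9:89723933-89738735, minus strand, 63.5 kb away), which encodes an ankyrin repeat protein. At P9 it had 3.69 and 3.25 RPKM in pools A and B, against 7.20 and 14.1 at E15, with the other 4 stages between 3.21 and 5.11. It fell by 1.32 ± 0.26 on the log2(RPKM + 1) scale between P9 and E15 (limma adjusted p = 0.00148, 55.4% of genes fell), which was -0.78 after median-ratio rescaling (adjusted p = 0.0617, with alternatives between 8.75e-05 and 0.0932). The mRNA of this neighbour was thus not higher at P9, where miR-184-3p was.

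At higher coordinates the nearest gene was the noncoding 4930524O08Rik (24.2 kb away, plus strand), listed at 0 in all 12 libraries. Rasgrf1, the brain guanine nucleotide exchange factor imprinted in mouse, starts 107.2 kb away on the plus strand and reached at most 0.406 RPKM, below the filter for testing. On the lower side beyond Ankrd34c, 97.2 kb from the hairpin, Tmed3 of the secretory pathway had 32.4 and 29.5 RPKM at P9 and 25.2 and 31.6 at E15 and was not called (adjusted p = 0.345), but rose after median-ratio rescaling (0.75, adjusted p = 0.00629, with alternatives up to 0.824) and without pool B of E15 (0.29, adjusted p = 0.0263). Ctsh, a lysosomal cysteine protease 251.9 kb away at higher coordinates, had 12.2 and 9.36 RPKM at P9 and 6.13 and 4.44 at E15, and rose by 0.91 ± 0.33 (adjusted p = 0.0324, 8.65% of genes rose). The call of Ctsh was lost without pool B of E15 (0.71, adjusted p = 0.128) and without pool A of P9 (0.73, adjusted p = 0.162), the highest of its alternatives, which ran down to 0.00331. Morf4l1, a chromatin protein, had 8.11 and 6.99 RPKM at P9 and 13.4 and 14.3 at E15 and fell by 0.80 ± 0.12 (adjusted p = 0.00029), a call lost after rescaling (-0.21, adjusted p = 0.27).

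The seed of miR-184-3p is matched in an mRNA by the 7 letters TCCGTCC on the transcript strand, and by TCCGTCCA where the base after the match is an A. Among the longest 3′ UTRs of 20979 mouse protein-coding genes in GENCODE M21, 519 (2.47%) held TCCGTCC and 121 (0.577%) held TCCGTCCA. For the other 5 of the 6 most abundant miRNAs the share with the 7-letter match was 14.9% for miR-204-5p, 16.3% for miR-181a-5p, 10.9% for miR-182-5p, 6.55% for miR-92a-3p and 9.67% for miR-26a-5p. miR-184-3p thus had the fewest matches of the 6, and its match was the only one of the 6 with a CG. These are matches in letters over whole UTRs of median length 954 and are not binding sites.

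A list of 11 genes linked to miR-184 was taken from work in other tissues and cell lines. Inppl1 is on it as the miR-205 target that miR-184 was described as relieving, and the other 10 as reported targets of miR-184 itself. Of their longest 3′ UTRs, 4 held TCCGTCC, those of Numbl, Ago2, Slc25a22 and Inppl1. The other 7 (Akt2, Fzd4, Hif1an, Snd1, Tnfaip2, Myc and Bcl2) held neither it nor its 6-letter core CCGTCC, which says only that these letters are not in these UTRs. The 4 matches are shown, on the transcript strand with the match in capitals, because they are where the seed printed above could pair. Their places (GRCm38) are chr7:27281768-27281796 on the plus strand for Numbl, chr15:73106742-73106770 on the minus strand for Ago2, chr7:141430627-141430655 on the minus strand for Slc25a22 and chr7:101822906-101822934 on the minus strand for Inppl1.
Numbl: ccacttaagcctggTCCGTCCtctccttg
Ago2: tttccagaatgcctTCCGTCCcagatgtc
Slc25a22: tggctctcctgtccTCCGTCCatcagtct
Inppl1: tctggggacatccaTCCGTCCggaaatga
The match of Slc25a22 was the only one of the 4 followed by an A.

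All 11 listed genes were tested in the mRNA libraries, but Tnfaip2 reached the filter only through embryonic libraries, where it is high, and is left out of the counts here. Of the other 10, between P9 and E15 0 rose and 5 fell, where 8.65% of 14405 genes rose and 55.4% fell. Their median change was -0.52, beside -0.54 for all genes. After median-ratio rescaling 1 rose and 2 fell, where 20.6% of genes rose and 20.6% fell, with a median of -0.05 beside -0.03 for all genes. Postnatal against embryonic, 0 rose and 7 of 10 fell, where 10.2% of genes rose and 67.4% fell. After rescaling 3 rose and 2 fell in that comparison, where 26.8% of genes rose and 27.8% fell. With Tnfaip2 counted, 6 of 11 fell between P9 and E15. That count was lower without pool A of E15, where Tnfaip2 was not tested, or without pool B of P9, and higher without pool B of E15. The shares of all genes in those fits are not given here, so these shifts are not particular to the listed genes. On the log2(RPKM + 1) scale the largest change among the 11 was that of Myc, the growth-promoting transcription factor, at 0.736 and 0.236 RPKM in pools A and B at P9, against 4.39 and 2.96 at E15. Myc fell by 1.66 ± 0.27 (limma adjusted p = 0.000478).

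Snd1, a nuclease of RNA-induced silencing complexes, had 21.8 and 22.4 RPKM at P9, against 54.2 and 42.5 at E15, and fell by 1.08 ± 0.12 (adjusted p = 4.04e-05). Tnfaip2, induced by tumour necrosis factor, had 0.010 and 0.110 RPKM at P9, against 1.06 and 0.696 at E15, a change of -0.82 ± 0.17 on that scale (adjusted p = 0.00225), which the filter had preset in direction as given above. Myc and Snd1, the 2 of the other 10 that were still called as lower after rescaling, held no seed match. Fzd4, a receptor for Wnt ligands and norrin, had 1.15 and 1.06 RPKM at P9, against 2.52 and 1.88 at E15, and fell by 0.60 ± 0.19 (adjusted p = 0.0196). That call was lost after rescaling (-0.20, adjusted p = 0.361) and without pool A of E15 or either pool of P9 (adjusted p up to 0.0879). Hif1an, the asparaginyl hydroxylase that restrains hypoxia-inducible factor, had 3.74 and 3.63 RPKM at P9, against 5.12 and 5.56 at E15. It fell by 0.44 ± 0.15 (adjusted p = 0.0264), while after rescaling the change was 0.09 (adjusted p = 0.669), and without pool B of E15 or either pool of P9 the adjusted p was up to 0.0978. The kinase Akt2 and the survival factor Bcl2 were not called, at -0.27 (adjusted p = 0.0977) and -0.13 (adjusted p = 0.591). Without pool B of E15, Bcl2 was called at -0.46 (adjusted p = 0.0263), and without pool A of E15 it was 0.20 (adjusted p = 0.32).

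Of the 4 genes with a match, Inppl1, which encodes SHIP2, had 11.1 and 9.85 RPKM at P9, against 28.0 and 13.3 at E15. It fell by 0.83 ± 0.26 (adjusted p = 0.017), but after rescaling the change was -0.22 (adjusted p = 0.41), and its E15 pools differed from each other by more than the lower one did from P9. Without pool A of E15 the change of Inppl1 was -0.32 (adjusted p = 0.0948) and without pool B of P9 it was -0.75 (adjusted p = 0.0808). Numbl, an endocytic adaptor that restrains Notch, had 4.24 and 5.04 RPKM at P9, against 13.4 and 5.32 at E15, a change of -0.76 ± 0.31 that was not called (adjusted p = 0.0509), and its size rested on single E15 pools, at -0.17 without pool A of E15 (adjusted p = 0.477) and -1.36 without pool B of E15 (adjusted p = 0.000171). Ago2, the slicing Argonaute, listed as Eif2c2, had 4.53 and 5.19 RPKM at P9, against 8.51 and 5.04 at E15, and was not called (-0.37 ± 0.20, adjusted p = 0.117). Without pool A of E15 the change of Eif2c2 was -0.05 (adjusted p = 0.809) and without pool B of E15 it was -0.70 (adjusted p = 0.0018). Slc25a22, a mitochondrial glutamate carrier, had 10.02 and 11.9 RPKM at P9, against 9.93 and 12.7 at E15 (-0.04 ± 0.15, adjusted p = 0.832), and after rescaling was the 1 gene that rose (0.55, adjusted p = 0.0341).

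**Figure D5:**
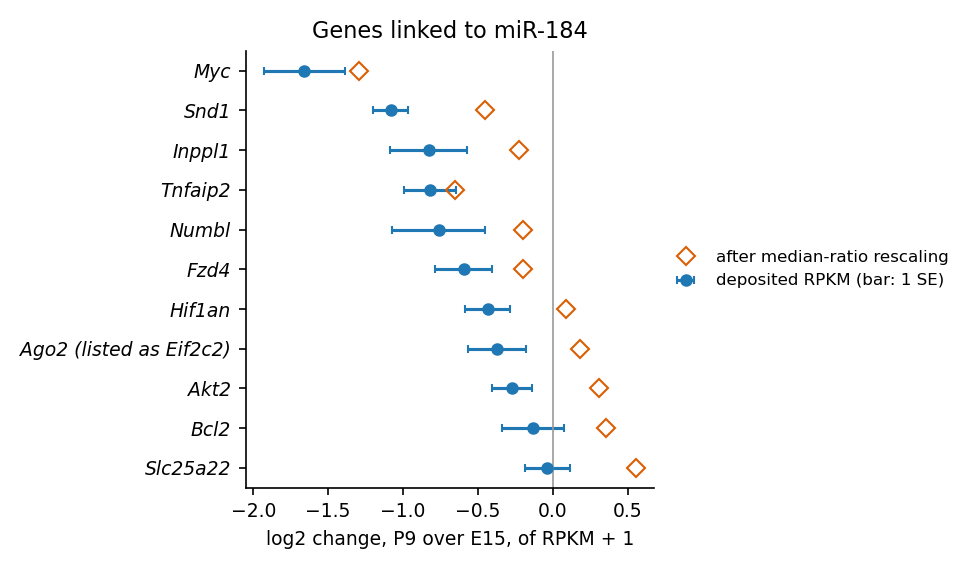
Log2 change of RPKM + 1 between P9 and E15 for the 11 genes linked to miR-184, on the deposited scale with SE bars and after median-ratio rescaling. All points on the deposited scale lie below 0, with Myc at -1.66, and 5 of 11 lie above 0 after rescaling.

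Where miR-184-3p fell at P3 and rose again at P6, none of the 11 listed genes was called by limma in either comparison. Of all genes 0.521% and 1.08% were called there, so a list of 11 is too short to show a difference from these shares. At an unadjusted limma p under 0.05 there were 2 of the 11 between P3 and P0, beside 10.8% of all genes, and 2 between P6 and P3, beside 20.2%. Without Tnfaip2 the median change of the listed genes was 0.03 between P3 and P0 and -0.27 between P6 and P3, beside 0.05 and -0.21 for all genes. Over all 419 tested genes with TCCGTCC in the 3′ UTR, the median change between P9 and E15 was -0.59, beside -0.57 for the 12484 tested genes with a 3′ UTR. Of those 419 genes 57.0% fell and 6.44% rose, against 58.2% and 8.63% of the 12484. Between P0 and E18, where miR-184-3p rose, the median change was -0.54 for the 419 genes and -0.43 for the 12484, and 53.0% against 47.6% fell. After median-ratio rescaling those medians were -0.11 and -0.01. Between E18 and E15, where miR-184-3p was not called, the medians were 0.14 for the 419 genes and 0.05 for the 12484. Between P3 and P0, where miR-184-3p fell, they were 0.06 and 0.05. Between P6 and P3, where miR-184-3p rose again, they were -0.26 and -0.22, and 1.19% against 0.897% fell. After median-ratio rescaling the medians of that step were -0.038 and 0.017. No test of these lists was made, and they give counts and medians only.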

How the data were processed

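Per the labels' protocols, lens RNA was extracted with Trizol and made into mRNA and small-RNA libraries with TruSeq kits. The build GRCm38, SAMtools 0.1.18 and Bowtie 0.12.8 appear, per the submitters' processing notes, in roles not given in the sources used here. The mRNA values the authors deposited were read as RPKM from their steps, which scale inversely with transcript length. The small-RNA values the authors deposited are a signal of unnamed unit and unknown depth. Values were analysed with 1 limma model per assay (limma 3.58.1, R 4.3.3) on log2(value + 1), stage as a factor over 12 libraries, 6 residual degrees of freedom, an intensity trend and Benjamini-Hochberg adjustment over the 777 miRNAs or 14405 genes that reached 1 in 2 or more libraries. A call is an adjusted p under 0.05, and fold changes on this scale understate low genes. Strand ratios were fitted over 246 hairpins without trend. On simulated data for P9 against E15 over 777 miRNAs, 62.4% of changes of 1 and 90.9% of changes of 2 (log2) were recovered. RNAfold 2.7.2 folded the hairpin. Both strands, the most abundant miRNAs, the most and least alike, locus genes and the miR-184-linked genes of largest change were named by rule. Members and lists were chosen with earlier results of these data known. Alternatives changed the scaling, pseudocount, filter, trend, pool block and libraries.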

Additional observations from a re-analysis of the deposited data

How the results depend on the processing

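The files hold no reads, the small-RNA depth is unknown and limits low miRNAs such as miR-184-5p, and 2 pools a stage share 1 estimate of the spread, so leaving out a library assumes that its partner varies like the other stages. The pool letters name separate pups and did not pair the libraries: over 15 pairs of stages the correlation of pool deviations ran between -0.234 and 0.0762 in miRNAs and between -0.247 and 0.206 in mRNAs, where 2 of 15 exceeded 0.1. With pool letter as a replicate block, miR-184-3p between P9 and E15 was 1.14 (adjusted p = 0.000443) and no call of either strand changed. All values here are log2 changes with limma adjusted p unless named otherwise, and where a scaling changed a call the cause was not tested.

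For miR-184-3p, quantile normalization, which sets equal values at equal ranks, gave 0.51 (0.0579) between P9 and E15, 0.24 (0.13) postnatal against embryonic and 0.32 (0.312) between P0 and E18, and called 5 of 15 pairs of stages. P0 against E18 was also lost with no filter (0.75, 0.0723) and with no trend (0.75, 0.0553), and ran from 0.72 to 0.77 with 1 library left out, where P3 against P0 ran from -1.15 to -0.68. P9 against P6, a change of about 0, took the other sign after median-ratio rescaling (0.25) and as a share of the other miRNAs (0.0017), and ran from -0.16 to 0.16 with 1 library left out. miR-204-5p between P9 and E15 was -0.51 after quantile normalization and 1.01 after median-ratio rescaling (0.00345), and ran from -0.015 to 0.20.

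For miR-184-5p, P9 against E15 was called after median-ratio rescaling (0.95, 0.00284) and quantile normalization (0.96, 0.00402), and ran from -0.066 to 0.16 with 1 library left out. Postnatal against embryonic was lost with no filter (0.39, 0.0502) and no trend (0.39, 0.0518), and ran from 0.31 to 0.48. P3 against P0 was lost after median-ratio rescaling (-0.48, 0.159), quantile normalization (-0.49, 0.164), with no filter (-0.81, 0.0563) and no trend (-0.81, 0.0532), and ran from -1.16 to -0.47. E18 against E15 was called without P3 (-0.68, 0.0182) and ran from -0.75 to -0.60. P0 against E18 ran from 0.84 to 1.10 and P6 against P3 from 0.59 to 1.27. Quantile normalization called 8 pairs of stages, and leaving out 1 library 3 to 8.

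The joint test of the strand ratio had an adjusted p of 0.0071 with a pseudocount of 5, 0.0322 with no filter and 0.0199 without P3, and from 0.0255 to 0.169 with 1 library left out. Its P9 against E15 change then ran from 0.94 to 1.24. Postnatal against embryonic was 0.34 with a pseudocount of 5 (0.0345) and 0.40 without P3 (0.0324), where leaving out the lowest postnatal stage widens the difference by itself. The miR-184-3p to miR-204-5p ratio was 0.70 without P3 (exact permutation p = 0.00952). With 1 library left out it ran from 0.40 to 0.67 (exact permutation p from 0.00606 to 0.267).

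Among the listed genes between P9 and E15, median-ratio rescaling and quantile normalization turned the sign of Eif2c2 (0.18 and 0.19), Slc25a22 (0.55 and 0.48), Akt2 (0.30 and 0.21), Hif1an (0.089 and 0.14) and Bcl2 (0.35 and 0.39). With 1 library left out Slc25a22 ran from -0.20 to 0.13, Bcl2 from -0.46 to 0.20, and the neighbour Tmed3 from -0.029 to 0.29. The filter at 10 RPKM left 2 genes called of 4 tested. Of these 4, Numbl reached that filter only through embryonic libraries, and the share of all genes called at that filter is not given here. Leaving out 1 library moved the count of called genes both down and up, and Tnfaip2 was not tested without pool A of E15 or pool B of E18. The shares of all genes in those fits are not given here. Leaving Tnfaip2 out, chosen after seeing the data, gave 5 of 10.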
